A study of Mus musculus with 9 samples.

Results

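The genes described here are the core of the machinery that carries a cell from G1 into S phase, followed in cultured mouse natural killer (NK) cells given TGF-β1 with or without SIS3, an inhibitor of Smad3. They are 10 genes chosen by symbol: the D-type cyclins Ccnd2 and Ccnd3, the E-type cyclins Ccne1 and Ccne2, the kinases Cdk2, Cdk4 and Cdk6, and the inhibitors Cdkn1b (p27), Cdkn2b (p15) and Cdkn2c (p18). All 10 were among the 16876 genes of the deposited count table, and all 10 were among the 12212 genes that passed a filter on low counts and were tested. The cells came from C57BL/6 femur marrow and carried no transgene or deletion named in the labels. For 4 days they had been expanded in 50 ng/mL IL-15, 30 ng/mL SCF, 10 ng/mL Flt3L and 1 ng/mL IL-7, then for a further week in 20 ng/mL IL-2 together with 50 ng/mL IL-15, and all 3 groups shared this history. Each group had 3 libraries. The SIS3_TGFb cells were given 10 µM SIS3 for 3 h and then 5 ng/mL TGF-β1 for 3 h, the TGFb cells were given 5 ng/mL TGF-β1 for 3 h alone, and the Ctrl cells were given neither. The titles of the SIS3_TGFb libraries name SIS3 alone, while the treatment text and the series design name TGF-β1 as well. No group had SIS3 without TGF-β1, so what SIS3 does alone and what it does to the TGF-β1 response cannot be told apart, and the labels name no solvent control. Whether replicates came from different mice or dishes is not in the labels either, and p-values here reflect library-to-library spread only, which may be technical.

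D-type cyclins are made in response to growth signals and bind Cdk4 and Cdk6, and E-type cyclins bind Cdk2. These kinases phosphorylate the retinoblastoma protein, which then releases E2F transcription factors to switch on genes of DNA replication. The INK4 proteins p15 and p18 block Cdk4 and Cdk6, and p27 blocks cyclin E with Cdk2. In NK cells IL-2 and IL-15 drive this machinery, and in epithelial cells TGF-β is known to stop it by raising p15 and lowering Myc.

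Library totals ran between 15714973 and 16718673 expected counts. NK markers (10 of 10 in the table) summed to 15057 to 15307 CPM in SIS3_TGFb, 13736 to 15092 CPM in TGFb and 18261 to 19364 CPM in Ctrl. Most of the NK sum was Gzmb (5376 to 8689 CPM over the 9 libraries), Prf1 (4511 to 6423 CPM) and Il2rb (1955 to 2690 CPM). Each other NK marker stayed at or below 555.6 CPM. Other cells' markers were present too: macrophage and monocyte markers (7 of 7, none at 0) summed to 756 to 1274 CPM in SIS3_TGFb, 670 to 1046 CPM in TGFb and 931 to 1234 CPM in Ctrl. Mast cell and basophil markers (7 of 7, with 1 at 0 in TGFb replicate 3) summed to 449 to 522 CPM in SIS3_TGFb, 477 to 526 CPM in TGFb and 486 to 514 CPM in Ctrl. Kit (167.1 to 273.3 CPM over the 9 libraries) and Mcpt8 (168.7 to 256.8 CPM) made up most of it, and each other marker of this list stayed at or below 38.2 CPM. The neutrophil list (6 of 6, with 0 or 1 at 0) summed to 220 to 233 CPM in SIS3_TGFb, 234 to 248 CPM in TGFb and 258 to 298 CPM in Ctrl, the same order of groups as for Ccnd3. Most of that sum was Ctsg (214.8 to 291.2 CPM over the 9 libraries), while Elane, S100a8, S100a9 and Ly6g stayed at or below 1.03 CPM, and the part of this list in the Ccnd3 result was not tested. TGFb replicate 3 lay away from its 2 fellow replicates on principal component 2 (-30.4 against -15.2 and -17.7) and on principal component 3 (20.1 against -14.9 and -15.7). It held the least of the erythroid and megakaryocyte markers (7.19 CPM, where the remaining 8 libraries held 29.0 to 46.3 CPM). The same library also held the least of the macrophage and monocyte (670 CPM), dendritic cell (359 CPM) and T cell (7.79 CPM) markers. SIS3_TGFb replicate 3 held more macrophage and monocyte marker RNA than the other libraries of its group (1274 CPM against 819 and 756 CPM). In these bulk libraries, fewer cells of a type and less RNA per cell cannot be told apart. CPM here are counts relative to library size, scaled between libraries by the trimmed mean of M-values (TMM).

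Levels between genes were compared per kilobase of merged exons (GENCODE M21, GRCm38), although the labels do not name the annotation behind the counts. Cdkn2b was the highest of the set in every group, at 113.8 ± 3.6 CPM per kb in SIS3_TGFb, 88.4 ± 6.71 in TGFb and 77.8 ± 3.13 in Ctrl (SD, n = 3 each). In SIS3_TGFb it was followed by Ccnd2 (57.1 ± 0.59 CPM per kb), Cdk4 (48.9 ± 1.69), Ccnd3 (38.0 ± 1.5), Cdk6 (26.7 ± 1.01) and Cdkn1b (18.4 ± 0.723). At the bottom lay Ccne1 (5.55 ± 1.03), Cdkn2c (3.56 ± 0.357), Cdk2 (3.31 ± 0.203) and Ccne2 (1.48 ± 0.294 CPM per kb). The ranges of Cdkn2c and Cdk2 overlapped there, and the other neighbours in that order did not. In TGFb the order was the same but for Cdk4 (50.0 ± 1.03) ahead of Ccnd2 (49.2 ± 1.27) and Cdk2 (4.07 ± 1.39) ahead of Cdkn2c (3.23 ± 0.169 CPM per kb), and within each of these pairs the libraries overlapped. In Ctrl, Ccnd2 (65.8 ± 1.51) stood above Cdk4 (58.1 ± 0.443) and Ccnd3 (56.9 ± 0.737 CPM per kb), with only a narrow gap between the lowest Cdk4 library (57.74) and the highest Ccnd3 library (57.69). Cdk6, with the longest merged exons (11525 bases), had the highest CPM of the set in TGFb and was second to Ccnd2 in SIS3_TGFb and Ctrl, yet per length it stood below Cdkn2b, Ccnd2, Cdk4 and Ccnd3 in all 3 groups.

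Promoter sequences are shown for the pair of inhibitors that rose together and for a kinase and a cyclin that fell, as the 250 bases before a RefSeq start (GRCm38.p6). Of the 10 genes 8 had an entry in the promoter table. The windows are Cdkn1b at chr6:134920151-134920400 (+ strand), Cdkn2b at chr4:89311033-89311282 (- strand), Cdk4 at chr10:127063285-127063534 (+ strand) and, for the farther upstream of its annotated starts, Ccnd3 at chr17:47504801-47505050 (+ strand). Sequences run 5′ to 3′ on the gene's strand, and capitals mark matches on either strand to any of 8 motifs: CAGAC (SMAD), GTAAACA (FOXO), CACGTG (the E-box bound by Myc), TTTNNCGC (E2F), TTCNNNGAA (STAT), GGGCGG (GC box), CCAAT and TGACGTCA (CREB or ATF).
Cdkn1b: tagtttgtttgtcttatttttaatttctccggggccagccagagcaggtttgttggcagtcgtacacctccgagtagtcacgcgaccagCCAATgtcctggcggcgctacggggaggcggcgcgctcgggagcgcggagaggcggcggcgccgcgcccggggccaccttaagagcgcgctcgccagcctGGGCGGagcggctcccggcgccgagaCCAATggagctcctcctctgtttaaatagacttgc
Cdkn2b: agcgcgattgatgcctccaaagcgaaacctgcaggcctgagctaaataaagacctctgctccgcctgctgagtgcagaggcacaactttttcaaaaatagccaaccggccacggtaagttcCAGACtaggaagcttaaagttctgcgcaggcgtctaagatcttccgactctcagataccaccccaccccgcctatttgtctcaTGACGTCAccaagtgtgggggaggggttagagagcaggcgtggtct
Cdk4: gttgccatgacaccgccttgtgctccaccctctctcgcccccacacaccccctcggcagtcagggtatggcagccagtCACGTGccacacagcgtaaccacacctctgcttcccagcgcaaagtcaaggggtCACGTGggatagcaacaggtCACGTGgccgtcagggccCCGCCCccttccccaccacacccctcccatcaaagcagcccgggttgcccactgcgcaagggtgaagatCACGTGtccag
Ccnd3: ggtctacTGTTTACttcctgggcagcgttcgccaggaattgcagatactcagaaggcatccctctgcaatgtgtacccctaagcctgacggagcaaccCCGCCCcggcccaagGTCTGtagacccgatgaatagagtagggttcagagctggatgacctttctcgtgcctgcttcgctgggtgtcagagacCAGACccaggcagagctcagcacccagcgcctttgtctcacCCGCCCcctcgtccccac
The Cdk4 window held 4 matches to CACGTG and 1 to the GC box. Of the other kinases, whose windows are not shown, Cdk6 held 1 CACGTG and 1 TTTNNCGC, and Cdk2 held 1 TTTNNCGC and no CACGTG. Of 32851 promoter windows of this length 6.02% held CACGTG at least once, and 7 windows (0.0213%) held it at 4 or more places. Cdkn2b held 1 CAGAC, a motif present in 42.2% of windows, and 1 TGACGTCA, present in 1.55%. Cdkn1b held 2 CCAAT (33.8% of windows) and 1 GC box (32.7%), and Ccnd3 at the start shown held 2 CAGAC, 1 GTAAACA (3.17%) and 2 GC boxes. The window of the other Ccnd3 start (chr17:47593217-47593466), not shown, held 1 CCAAT and 1 GC box, and no CAGAC or GTAAACA. None of the matches in the 4 windows shown overlapped each other. None of these 4 held TTTNNCGC (4.28%) or TTCNNNGAA (7.02%), and a match describes the letters only.

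**Figure D1:**
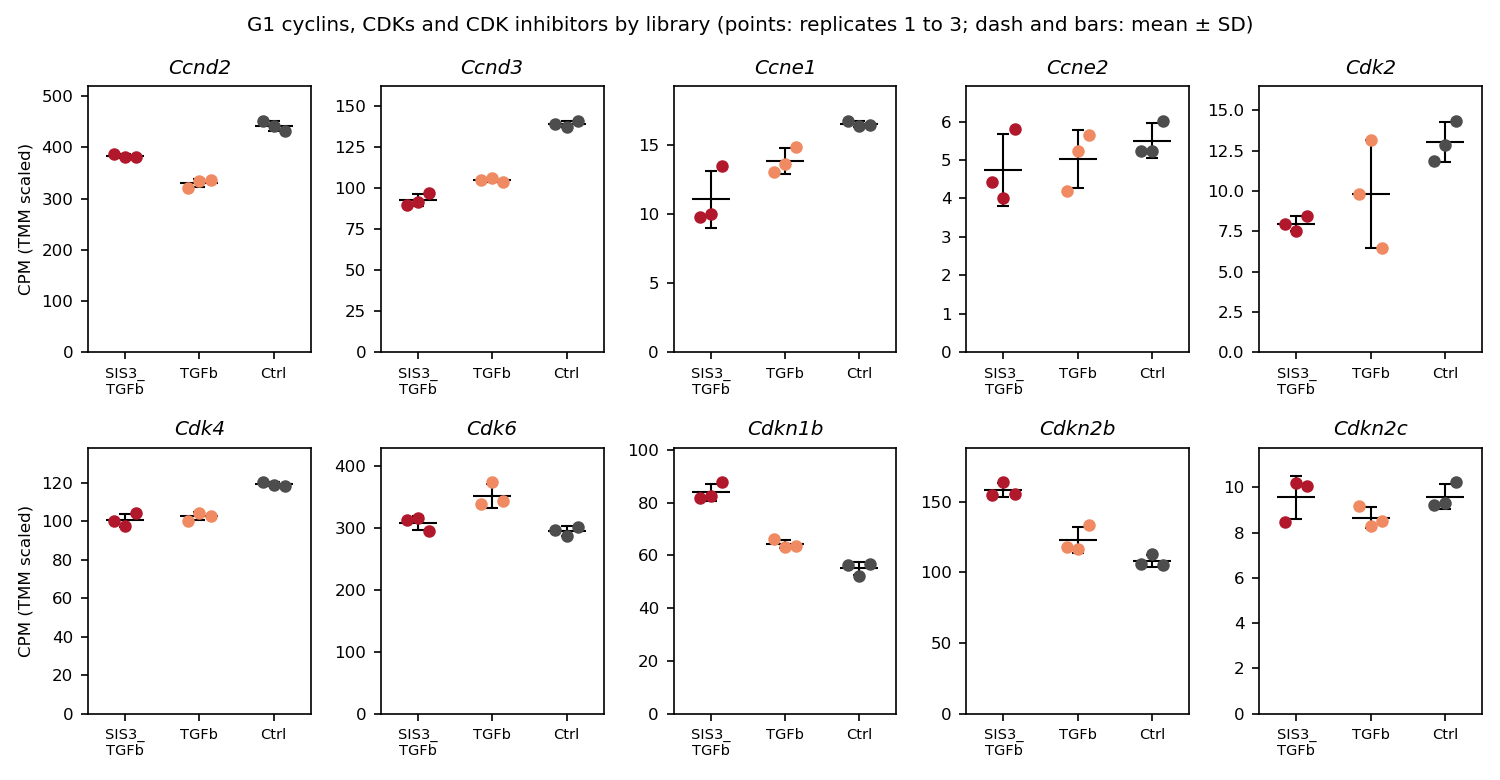
Level of each of the 10 genes (CPM, TMM scaled, linear axes from 0) in the libraries of SIS3_TGFb, TGFb and Ctrl; points are replicates 1 to 3, and the dash and bars give the mean ± SD. Cdkn1b and Cdkn2b are highest in SIS3_TGFb and lowest in Ctrl with no overlap between groups, Ccnd3 runs the other way, and Cdk2 in TGFb spreads between 6.46 and 13.2 CPM.

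When cells received TGF-β1, Ccnd2, Ccnd3 and Cdk4 fell while Cdk6 and the inhibitors p27 and p15 rose. With SIS3 given beforehand p27, p15 and Ccnd2 were higher, and Ccnd3, Ccne1 and Cdk6 lower, than with TGF-β1 alone. In SIS3_TGFb against TGFb 3 of the 10 genes rose and 3 fell, where 41.8% of all genes tested were called, 21.2% as rises and 20.6% as falls. In TGFb against Ctrl 3 rose and 3 fell, where 34.3% of all genes were called, 17.9% as rises and 16.4% as falls. In SIS3_TGFb against Ctrl 2 rose and 5 fell, where 53.9% were called, 29% as rises and 24.9% as falls. With shares this high a call by itself says little of a gene, and the account that follows is of which members moved which way and by how much. The call of Ccne1 in SIS3_TGFb against TGFb was lost in 6 of 13 alternative settings, more than any other call of the 10 genes. The libraries of the compared groups did not overlap for 5 members in SIS3_TGFb against TGFb (3 higher, 2 lower), beside 51.4% of all genes (26.5% higher, 24.9% lower). In TGFb against Ctrl this held for 8 members (3 higher, 5 lower), beside 45% of all genes (22.9% higher, 22.1% lower). It held in SIS3_TGFb against Ctrl for 7 (2 higher, 5 lower), beside 61.1% (32.6% higher, 28.4% lower). The median log2 change of the set was -0.05, -0.18 and -0.21 in these comparisons, beside 0.01, -0.00 and 0.02 over all genes tested. The comparisons share libraries and are not independent of each other. Without scaling factors the set counted 3 rises and 0 falls in SIS3_TGFb against TGFb, and over all genes the share of calls that were rises was 71.1%, against 50.6% with TMM. That share was 63.8% without scaling factors and 53.8% with TMM in SIS3_TGFb against Ctrl, and in TGFb against Ctrl it was 41.3% with upper-quartile factors and 52.2% with TMM.

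Both D-type cyclins fell when cells received TGF-β1, and SIS3 then separated them, with Ccnd2 higher and Ccnd3 lower than after TGF-β1 alone. Ccnd2 (Entrez 12444, chr6:127125162-127152193, - strand), the main D cyclin by read count in these cells, stood at 388, 381 and 380 CPM in SIS3_TGFb, 321, 334 and 336 CPM in TGFb and 452, 442 and 432 CPM in Ctrl. The 3 groups did not overlap, and SIS3_TGFb lay between TGFb and Ctrl. Against Ctrl, TGFb was lower by a log2 change of -0.42 ± 0.034 (SE; 0.748-fold; adjusted p = 7.81e-08 in edgeR's quasi-likelihood test with Benjamini-Hochberg adjustment, as for all adjusted p-values here unless another tool is named). Against TGFb, SIS3_TGFb was higher by 0.21 ± 0.034 (adjusted p = 0.000137), and against Ctrl it was lower by a change of -0.21 ± 0.034 (adjusted p = 9.54e-05). Thus Ccnd2 in cells given both agents was above its level under TGF-β1 and still below its untreated level.

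Ccnd3 (Entrez 12445, chr17:47505051-47599691, + strand), which also pairs with Cdk4 and Cdk6, was read at 90.0, 91.6 and 97.0 CPM in SIS3_TGFb, 105, 106 and 104 CPM in TGFb and 139, 138 and 141 CPM in Ctrl. Its groups did not overlap either, and here SIS3_TGFb was the lowest. The log2 change was -0.41 ± 0.037 in TGFb against Ctrl (adjusted p = 2.88e-07) and -0.17 ± 0.038 in SIS3_TGFb against TGFb (adjusted p = 0.00175). In SIS3_TGFb against Ctrl it was -0.58 ± 0.037, or 0.667-fold (adjusted p = 2.41e-09). The smaller of these falls, in SIS3_TGFb against TGFb, did not pass without scaling factors (-0.09, adjusted p = 0.0948). Ccnd3 counts were not whole numbers in any of the 9 libraries, so some reads were divided between gene models. In addition 361 of its exon bases overlap Bysl, a ribosome biogenesis gene on the opposite strand that itself fell, with log2 changes of -0.20 ± 0.063 in SIS3_TGFb against TGFb, -0.37 ± 0.06 in TGFb against Ctrl and -0.58 ± 0.061 in SIS3_TGFb against Ctrl. The labels do not say whether the counting used strand, so reads from the overlap cannot be assigned.

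E-type cyclins were scarce. Ccne1 (Entrez 12447, chr7:38097984-38107534, - strand), the more abundant, was at 9.81, 10.0 and 13.5 CPM in SIS3_TGFb, 13.1, 13.7 and 14.8 CPM in TGFb and 16.8, 16.4 and 16.5 CPM in Ctrl. SIS3_TGFb lay wholly below Ctrl, and its replicate 3 overlapped TGFb. It fell in SIS3_TGFb against Ctrl (-0.58 ± 0.108, adjusted p = 0.000297) and in SIS3_TGFb against TGFb (-0.32 ± 0.11, adjusted p = 0.0301), and its change in TGFb against Ctrl was -0.26 ± 0.106 (adjusted p = 0.0724, 95% interval -0.48 to -0.03). The call in SIS3_TGFb against TGFb was lost without SIS3_TGFb replicate 1 (adjusted p = 0.135) or 2 (0.124), without TGFb replicate 2 (0.0544) or 3 (0.0896), without scaling factors (0.109) and with only those 2 groups in the fit (0.0553), and the change grew to -0.48 without SIS3_TGFb replicate 3 (adjusted p = 0.00102), while TGFb against Ctrl passed without TGFb replicate 3 (0.0478), with upper-quartile factors (0.0406) and with only those 2 groups in the fit (0.0276). SIS3_TGFb replicate 3, the highest of its group for Ccne1, is also the library with 1274 CPM of macrophage and monocyte markers and 708 CPM of dendritic cell markers (6 of 6, with 1 at 0 in that library and 0 to 2 at 0 across the 9 libraries; 400 to 708 CPM in SIS3_TGFb, 359 to 571 in TGFb and 450 to 625 in Ctrl), and the part of that marker difference in the Ccne1 result was not tested.

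Ccne2 (Entrez 12448, chr4:11191351-11204779, + strand) passed in no comparison. It had 4.43, 4.01 and 5.81 CPM in SIS3_TGFb, 4.19, 5.25 and 5.66 CPM in TGFb and 5.24, 5.24 and 6.02 CPM in Ctrl, with the groups overlapping. Its log2 changes were -0.08 (95% interval -0.44 to 0.28) in SIS3_TGFb against TGFb, -0.13 (-0.48 to 0.22) in TGFb against Ctrl and -0.21 (-0.56 to 0.14) in SIS3_TGFb against Ctrl. These intervals include changes as large as those of Ccnd2, so the lack of a call does not show that Ccne2 did not change. Its counts were not whole either, and 609 of its exon bases overlap Ints8, a subunit of the Integrator complex on the opposite strand, which fell in SIS3_TGFb against Ctrl (-0.19 ± 0.049, adjusted p = 0.00411).

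The kinases did not move together. Cdk4 fell with TGF-β1, Cdk6 rose, and Cdk2 spread widely among the TGFb libraries and did not pass. Cdk4 (Entrez 12567, chr10:127063534-127067920, + strand) was at 99.9, 97.3 and 104 CPM in SIS3_TGFb, 100, 104 and 103 CPM in TGFb and 120, 119 and 119 CPM in Ctrl. Both treated groups lay below Ctrl and overlapped each other. TGFb against Ctrl gave -0.22 ± 0.037 (adjusted p = 0.000254) and SIS3_TGFb against Ctrl gave -0.25 ± 0.037 (adjusted p = 3.96e-05). SIS3_TGFb against TGFb gave -0.03 with a 95% interval of -0.11 to 0.05 (adjusted p = 0.565), and this sign turned without scaling factors (0.05, adjusted p = 0.29). By the GENCODE models Cdk4 shares 641 exon bases with Tspan31, a tetraspanin gene on the opposite strand, whose own change in TGFb against Ctrl was 0.03 ± 0.037 (adjusted p = 0.638). The RefSeq model of Cdk4 ends earlier, at 127067288. Unlike those of Ccnd3 and Ccne2, Cdk4 counts were whole numbers in all 9 libraries. Tspan31 fell in SIS3_TGFb against TGFb (-0.15 ± 0.037, adjusted p = 0.00341) and in SIS3_TGFb against Ctrl (-0.13 ± 0.037, adjusted p = 0.00796), where Cdk4 fell as well.

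Cdk6 (Entrez 12571, chr5:3341485-3531008, + strand), the other partner of D cyclins, was at 312, 316 and 294 CPM in SIS3_TGFb, 338, 373 and 343 CPM in TGFb and 296, 287 and 301 CPM in Ctrl. TGFb was above both other groups, which overlapped. It rose in TGFb against Ctrl (0.25 ± 0.043, 1.19-fold, adjusted p = 0.000208) and was lower in SIS3_TGFb than in TGFb (-0.19 ± 0.043, adjusted p = 0.00193). SIS3_TGFb against Ctrl gave 0.06 with a 95% interval of -0.03 to 0.15 (adjusted p = 0.248). Without scaling factors the SIS3_TGFb against TGFb call was lost (-0.11, adjusted p = 0.053) and SIS3_TGFb against Ctrl passed (0.12, adjusted p = 0.0293).

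Cdk2 (Entrez 12566, chr10:128697939-128705031, - strand), the partner of E cyclins, was at 7.97, 7.50 and 8.48 CPM in SIS3_TGFb, 9.79, 13.2 and 6.46 CPM in TGFb and 11.9, 12.9 and 14.4 CPM in Ctrl. SIS3_TGFb was wholly below Ctrl, and TGFb spread across both. It fell in SIS3_TGFb against Ctrl by the largest change of the set (-0.71 ± 0.177, 0.612-fold, adjusted p = 0.00311), a call that held in all 13 alternative settings. TGFb against Ctrl (-0.40 ± 0.173, adjusted p = 0.0865) and SIS3_TGFb against TGFb (-0.30 ± 0.183, adjusted p = 0.202) did not pass. Both turned on single TGFb libraries. TGFb against Ctrl passed without TGFb replicate 2 (-0.68, adjusted p = 0.00305) and with no filter on low counts (-0.40, adjusted p = 0.0365), and it came to -0.19 (adjusted p = 0.303) without TGFb replicate 3. SIS3_TGFb against TGFb came to -0.03 (adjusted p = 0.888) without TGFb replicate 2 and passed at -0.53 (adjusted p = 0.0052) without TGFb replicate 3. TGFb replicate 3, the lowest library for Cdk2, is the one with 7.19 CPM of erythroid and megakaryocyte markers. These markers (6 of 6 in the table) summed to 29.0 to 32.3 CPM in SIS3_TGFb, 7.19 to 37.9 in TGFb and 36.0 to 46.3 in Ctrl. That library was also the lowest for macrophage and monocyte, dendritic cell and T cell markers. The part of these differences in the Cdk2 result was not tested.

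Of the inhibitors, p27 and p15 rose in every comparison and p18 in none. Cdkn1b (Entrez 12576, chr6:134920401-134925513, + strand), which encodes p27, was at 81.8, 82.3 and 87.7 CPM in SIS3_TGFb, 66.2, 63.1 and 63.6 CPM in TGFb and 56.3, 52.3 and 56.6 CPM in Ctrl. No group overlapped another. The rise was 0.38 ± 0.046 in SIS3_TGFb against TGFb (1.30-fold, adjusted p = 7.81e-06), 0.22 ± 0.048 in TGFb against Ctrl (1.17-fold, adjusted p = 0.0016) and 0.61 ± 0.046 in SIS3_TGFb against Ctrl (1.52-fold, adjusted p = 2.09e-08). All 3 calls held in each of the 13 alternative settings.

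Cdkn2b (Entrez 12579, chr4:89306299-89311039, - strand), which encodes p15, was at 155, 164 and 155 CPM in SIS3_TGFb, 118, 117 and 134 CPM in TGFb and 106, 113 and 105 CPM in Ctrl. Again no library of a group reached into another group. SIS3_TGFb against TGFb gave 0.37 ± 0.05 (1.29-fold, adjusted p = 2.84e-05) and SIS3_TGFb against Ctrl gave 0.55 ± 0.05 (1.46-fold, adjusted p = 1.68e-07), both called in all 13 alternative settings. TGF-β1 alone gave 0.18 ± 0.051 (1.13-fold, adjusted p = 0.0111). That smaller rise missed the threshold without TGFb replicate 3, the highest of its group (0.12, adjusted p = 0.0602), and it also missed the threshold without Ctrl replicate 3 (0.16, adjusted p = 0.0528) and with upper-quartile factors (0.14, adjusted p = 0.0511).

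Cdkn2c (Entrez 12580, chr4:109660876-109667189, - strand), which encodes p18, was at 8.45, 10.2 and 10.0 CPM in SIS3_TGFb, 9.17, 8.30 and 8.52 CPM in TGFb and 9.21, 9.31 and 10.2 CPM in Ctrl. All TGFb libraries were below all Ctrl libraries, by a narrow margin (highest TGFb 9.17, lowest Ctrl 9.21), and SIS3_TGFb overlapped both. The log2 changes were 0.14 (95% interval -0.09 to 0.37) in SIS3_TGFb against TGFb, -0.15 (-0.38 to 0.09) in TGFb against Ctrl and -0.00 (-0.23 to 0.22) in SIS3_TGFb against Ctrl. None passed (adjusted p = 0.319, 0.336 and 0.979).

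**Figure D2:**
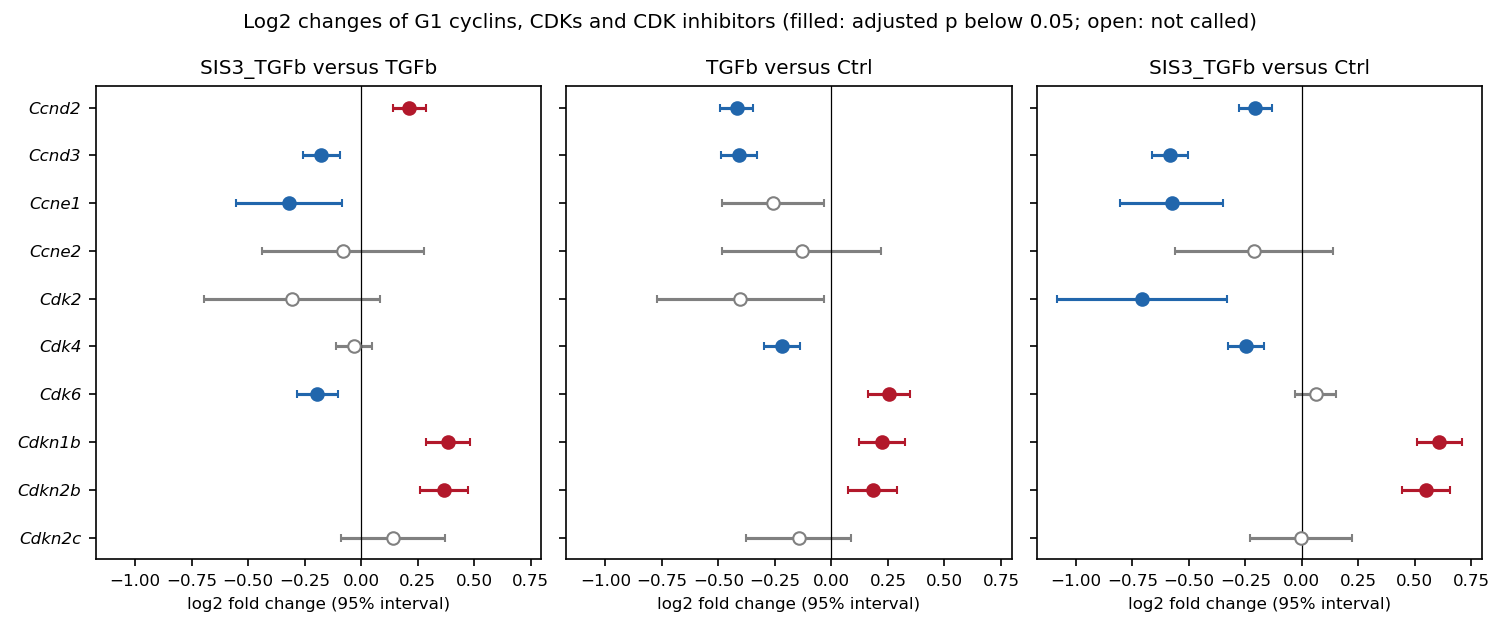
Log2 fold changes (x axis) of the 10 genes in the 3 comparisons, with 95% intervals; filled red points were called higher, filled blue points lower and open points not called at an adjusted p below 0.05. Cdkn1b and Cdkn2b are right of 0 in all 3 panels, Ccnd3 is left of 0 in all 3, and Ccnd2 and Cdk6 lie on opposite sides of 0 in the first 2 panels.

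Ratios of counts within a library do not depend on such scaling. Ccnd2 had 4.31, 4.16 and 3.92 counts per Ccnd3 count in SIS3_TGFb, against 3.06, 3.15 and 3.24 in TGFb and 3.25, 3.21 and 3.06 in Ctrl. The ratio was thus higher in SIS3_TGFb than in any other library, and TGFb and Ctrl overlapped. Cdkn1b had 0.909, 0.898 and 0.904 counts per Ccnd3 count in SIS3_TGFb, 0.631, 0.596 and 0.614 in TGFb and 0.405, 0.38 and 0.401 in Ctrl, 3 groups well apart. Cdkn2b per Cdk4 was 1.55, 1.68 and 1.49 in SIS3_TGFb, 1.18, 1.12 and 1.30 in TGFb and 0.883, 0.951 and 0.888 in Ctrl, also without overlap. Ccne1 per Cdkn1b stood at 0.12, 0.121 and 0.154 in SIS3_TGFb, 0.197, 0.216 and 0.233 in TGFb and 0.298, 0.313 and 0.291 in Ctrl. Cdk6 per Cdk4 was 3.12, 3.25 and 2.82 in SIS3_TGFb, 3.38, 3.57 and 3.33 in TGFb and 2.46, 2.41 and 2.54 in Ctrl, lowest in Ctrl and highest in TGFb. These 5 pairs were chosen after the values were seen, and their ratios are given without a test. The genes of each pair moved in opposite directions in some comparison, so the separation of groups was partly set by the choice.

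**Figure D3:**
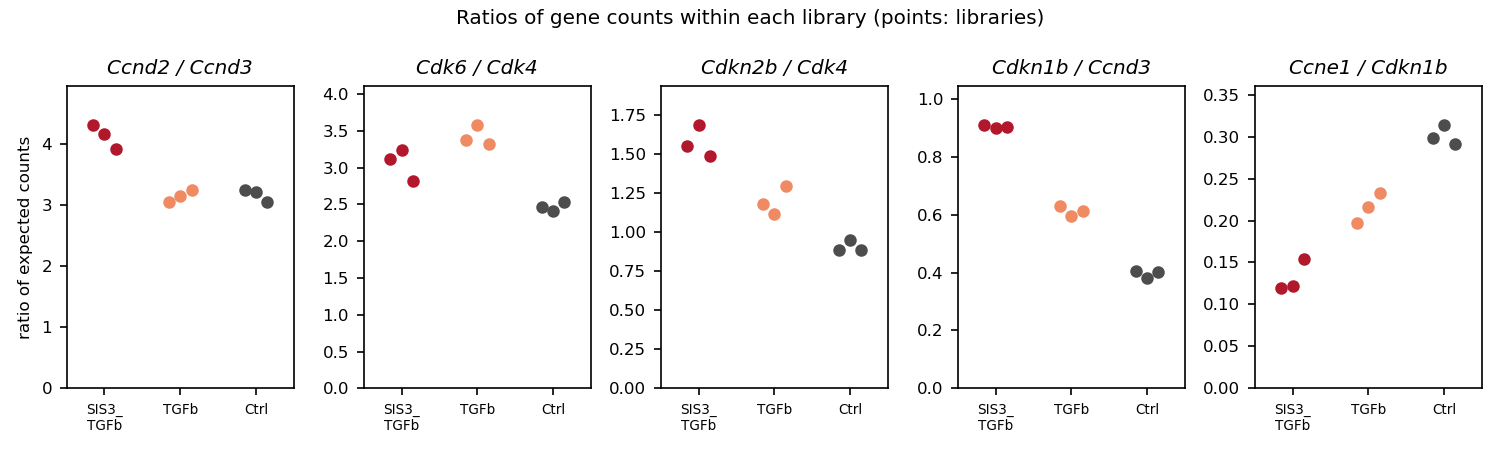
Ratios of expected counts of 5 gene pairs within each library (y axes linear from 0; points are libraries of SIS3_TGFb, TGFb and Ctrl). Cdkn1b per Ccnd3 and Cdkn2b per Cdk4 are highest in SIS3_TGFb and lowest in Ctrl, and Ccne1 per Cdkn1b runs the other way.

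Counts of calls in the lists from here on stand beside the shares of all genes called. These were 41.8% in SIS3_TGFb against TGFb, 34.3% in TGFb against Ctrl and 53.9% in SIS3_TGFb against Ctrl. Of the remaining D cyclin and inhibitor genes, Cdkn1a rose in cells given SIS3. Cdkn1a, which encodes the p53-inducible inhibitor p21, was at 413, 413 and 396 CPM in SIS3_TGFb, 296, 299 and 303 CPM in TGFb and 289, 306 and 301 CPM in Ctrl, so that all SIS3_TGFb libraries were above the others. It rose by 0.44 ± 0.035 in SIS3_TGFb against TGFb (adjusted p = 9.06e-08). In TGFb against Ctrl edgeR called 0 of the 4 tested genes of this list (Ccnd1, Cdkn1a, Cdkn2a and Cdkn2d), with 0 at an unadjusted p below 0.05 and 0 called by DESeq2. In SIS3_TGFb against Ctrl 1 rose and 2 fell, the falls being Ccnd1 (-0.52 ± 0.151) and Cdkn2d (-0.17 ± 0.065). The fall of Ccnd1 was lost without Ctrl replicate 2 (adjusted p = 0.0603) or SIS3_TGFb replicate 1 (0.0512), and that of Cdkn2d without Ctrl replicate 2 (0.185), in DESeq2 (0.0805), without scaling factors (0.154) and without any 1 of the 3 SIS3_TGFb replicates (0.0575 to 0.0897). Cdkn1c, the p57 gene, was filtered out. Cdkn2a encodes both p16 and p19Arf, which counts per gene cannot separate.

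Genes that E2F factors switch on at S phase entry were mostly lower with TGF-β1, and the part of the cyclins and kinases in this was not tested. In TGFb against Ctrl 13 of 16 fell, 0 rose and 3 did not pass (median -0.34, beside -0.00 over all genes; at an unadjusted p below 0.05, 15 were lower and 0 higher, and DESeq2 called 11 lower and 0 higher). Cyclin A2 (Ccna2, -0.51 ± 0.065), the replicative helicase subunit Mcm6 (-0.34 ± 0.037) and the ribonucleotide reductase subunit Rrm2 (-0.34 ± 0.055) had the smallest p-values. In SIS3_TGFb against TGFb the list had 5 rises, 3 falls and 8 genes not passing (median 0.07), where 21.2% of all genes tested were called as rises and 20.6% as falls. The sliding clamp Pcna (-0.43 ± 0.039) and Mcm6 (-0.17 ± 0.038) fell, while Mcm7 (0.34 ± 0.055), another helicase subunit, and Ccna2 (0.28 ± 0.066) rose. The fall of Mcm6 here was lost without scaling factors (adjusted p = 0.0929), and the list then had 7 rises and 1 fall. It counted 3 rises and 2 falls without TGFb replicate 1, and 2 rises and 3 falls without TGFb replicate 3. Of these genes 11 fell, 1 rose and 4 did not pass in SIS3_TGFb against Ctrl (median -0.24), led by Pcna (-0.60 ± 0.038), with Mcm7 (0.20 ± 0.054) as the rise.

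The retinoblastoma and E2F genes themselves went both ways, as did the calls over all genes. In TGFb against Ctrl 4 of 13 rose, 4 fell and 5 did not pass, with rises of E2f3 (0.76 ± 0.055), an activator E2F, E2f4 (0.39 ± 0.039), a repressor E2F, and Tfdp2 (0.61 ± 0.061), and a fall of Tfdp1 (-0.47 ± 0.051), both of which encode partners that E2F proteins need to bind DNA. In SIS3_TGFb against TGFb 2 rose, 3 fell and 8 did not pass. There E2f4 (-0.35 ± 0.039) and E2f3 (-0.30 ± 0.052) fell, and Rb1 (0.28 ± 0.047), the retinoblastoma gene, and E2f6 (0.32 ± 0.08) rose. Against Ctrl, SIS3_TGFb had 3 rises, 4 falls and 6 genes that did not pass, with E2f6, a repressor E2F, at 0.82 ± 0.083 and E2f1, an activator, at -0.43 ± 0.077.

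Among 12 genes that activate or degrade the complexes, 3 rose, 2 fell and 7 did not pass in TGFb against Ctrl. Cdc25a, a phosphatase that activates Cdk2, rose by 1.00 ± 0.066, and Wee1, a kinase that inhibits CDKs, rose by 0.88 ± 0.057. Falls were those of Skp1 (-0.32 ± 0.052), a subunit of the SCF ubiquitin ligases, and Cks1b (-0.44 ± 0.1), which the ligase needs to recognise p27. In SIS3_TGFb against TGFb 3 rose, 4 fell and 5 did not pass. Skp1 (-0.40 ± 0.054), Wee1 (-0.33 ± 0.054) and Fbxw7 (-0.29 ± 0.047), the ligase subunit that recognises cyclin E, fell, and Ccnh (0.39 ± 0.073), the cyclin of the CDK-activating kinase, rose. In SIS3_TGFb against Ctrl 4 rose, 3 fell and 5 did not pass, with Cdc25a at 0.70 ± 0.067 and Skp1 at -0.72 ± 0.053. The medians of these 12 genes were 0.01, -0.10 and -0.05 in the 3 comparisons as ordered here, beside -0.00, 0.01 and 0.02 over all genes. In the same order 34.3%, 41.8% and 53.9% of all genes were called.

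Among upstream factors with known links to these genes, Myc fell in all 3 comparisons. Myc, which in general drives Ccnd2 and Cdk4 and represses Cdkn2b, was at 8.56, 9.94 and 10.2 CPM in SIS3_TGFb, 29.0, 30.3 and 31.8 CPM in TGFb and 60.2, 59.0 and 58.8 CPM in Ctrl. The groups lay far apart in one order, lowest in SIS3_TGFb and highest in Ctrl. Its changes were -1.67 ± 0.072 in SIS3_TGFb against TGFb and -0.97 ± 0.058 in TGFb against Ctrl. Ccnd2 rose (0.21 ± 0.034), Cdk4 did not pass (-0.03 ± 0.038) and Cdkn2b rose (0.37 ± 0.05) in SIS3_TGFb against TGFb. Ccnd2 (-0.42 ± 0.034) and Cdk4 (-0.22 ± 0.037) fell and Cdkn2b rose (0.18 ± 0.051) in TGFb against Ctrl. The part of Myc in these results was not tested. Foxo1 and Foxo3, which activate Cdkn1b in many cells, rose in TGFb against Ctrl (0.62 ± 0.056 and 0.49 ± 0.073) and in SIS3_TGFb against Ctrl (0.46 ± 0.056 and 0.47 ± 0.073). In SIS3_TGFb against TGFb Cdkn1b rose by 0.38. There Foxo1 fell by a change of -0.16 ± 0.054 (adjusted p = 0.0264) and Foxo3 was at -0.01 ± 0.07 (adjusted p = 0.905). These Foxo values were added after they were seen, and the part of Foxo1 and Foxo3 in the Cdkn1b result was not tested. The Foxo1 call was lost without scaling factors (-0.08, adjusted p = 0.232), without SIS3_TGFb replicate 3 (-0.11, adjusted p = 0.119) and without TGFb replicate 2 (-0.16, adjusted p = 0.0667) or 3 (-0.12, adjusted p = 0.103), and the Foxo3 value turned positive without scaling factors (0.07) and without SIS3_TGFb replicate 3 (0.04). Smad3 rose in TGFb against Ctrl (1.18 ± 0.155) and fell in SIS3_TGFb against TGFb (-0.80 ± 0.148). Of the 10 factors 4 rose, 2 fell and 4 did not pass in TGFb against Ctrl, 2, 3 and 5 did so in SIS3_TGFb against TGFb, and 4, 3 and 3 in SIS3_TGFb against Ctrl. In SIS3_TGFb against TGFb both rises were those of the TGF-β signal transducers Smad2 (0.19 ± 0.048) and Smad4 (0.18 ± 0.05). In DESeq2 neither passed (adjusted p = 0.0509 and 0.085), which left 3 calls, all falls.

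**Figure D4:**
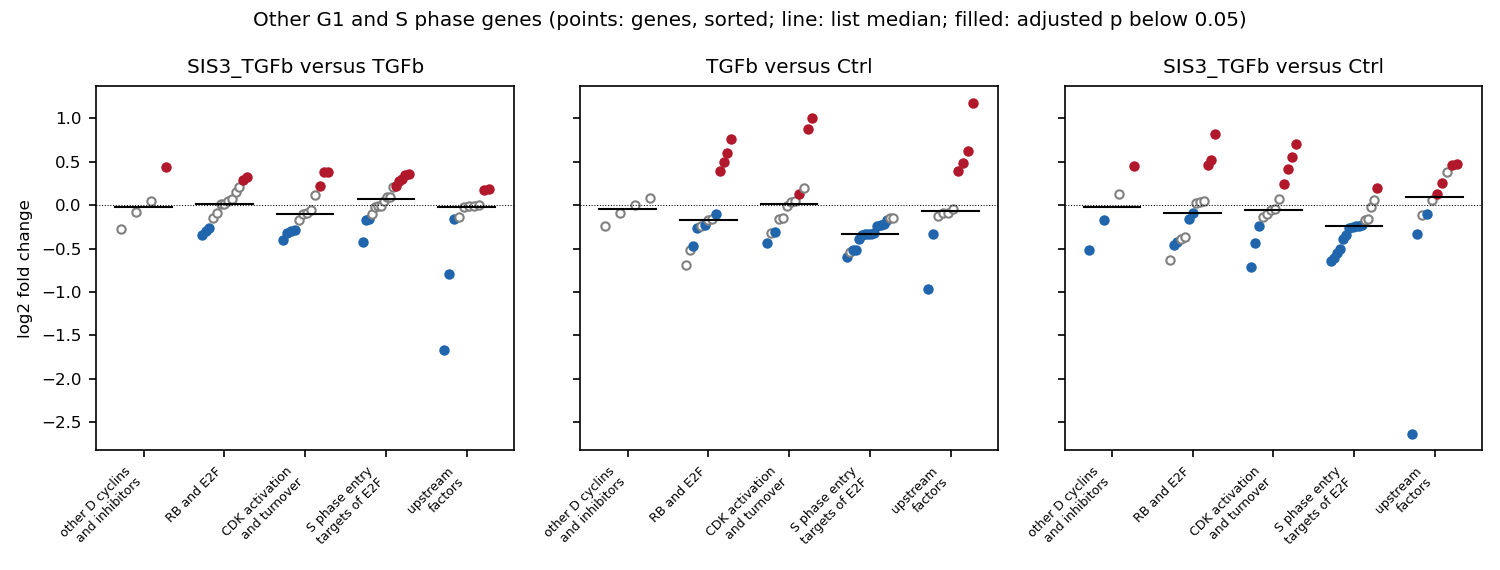
Log2 fold changes (y axis) of the tested genes of 5 lists in the 3 comparisons; points are genes sorted by value, lines are list medians, and filled red or blue points passed at an adjusted p below 0.05 as rises or falls. In TGFb versus Ctrl the filled points of the S phase entry list are all below 0, and the lowest point of the upstream list in each panel is Myc, down to -2.63 in SIS3_TGFb versus Ctrl.

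Genes whose profile over the 9 libraries was nearest to that of 2 members were found by the root mean square distance between log2 CPM profiles, each centred on its own mean. For Ccnd2, the member with the largest change in TGFb against Ctrl, they were Hspd1, a mitochondrial chaperonin (distance 0.0301), Ero1b, an oxidase of the endoplasmic reticulum (0.0316), Id2, an inhibitor of E proteins (0.0388), Mindy1, a deubiquitinase (0.0422), and Wdr75, a nucleolar protein (0.0442). The median distance over the 11633 genes compared was 0.242, and Ccnd2 itself varied by 0.173 around its mean. For Cdkn1b, the member with the largest change in SIS3_TGFb against TGFb, they were Supt20 (0.0387), Slc25a45 (0.0448), Zfp869 (0.0522), Fgr, a Src family kinase (0.0581), and Arhgef3 (0.0593), where the median distance was 0.305. These distances describe the same 9 libraries and say nothing of shared control.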

How the data were processed

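Poly-A RNA of bone marrow-derived NK cells (9 libraries of 1 µg) was sequenced with DNBseq in pairs of 100 bp, per the labels' protocols. The authors deposited 1 table, in expected counts that are not scaled for depth, a unit read from the values, of which 10.2% to 11.1% per library are not whole. Per the submitters' processing notes RSEM, Bowtie2, HISAT2, StringTie, Cufflinks and DESeq2 were used with builds mm10 and GRCm38, with no roles or versions stated. Counts were rounded, filtered with filterByExpr (minimum count 10, minimum total 15), scaled by TMM and fitted over all 9 libraries with 1 mean per group in edgeR 4.0.16 (glmQLFit and glmQLFTest; R 4.3.3), with p-values adjusted by Benjamini-Hochberg over 12212 genes and calls made at 0.05. SEs were |log2 change| / sqrt(F). The test was checked on simulated data. Of 1.25-fold changes put in, it recovered 53% in TGFb against Ctrl, 37.5% in SIS3_TGFb against TGFb and 58.1% in SIS3_TGFb against Ctrl. Of 2-fold changes it recovered 87.1%, 88.6% and 84.4% in the same order, and it called 6, 2 and 7 unchanged genes. Small changes can therefore go uncalled. The members and lists were chosen with earlier results of these data known. All members were named; from each other list, at most 3 called genes with the smallest p and 1 called the other way, per comparison, and other genes only by their counts. Genes of like profile were the 5 nearest, leaving out numbered models, Rik symbols and pseudogenes. Alternatives were RLE, upper-quartile or no scaling factors, no filter, DESeq2 1.42.0, only the 2 groups compared, a replicate block, and each replicate left out. Deviations of same-numbered replicates from their group means correlated at -0.147 to 0.126, so the numbers were not taken as pairs. No 2 replicates agreed within sampling noise (chi-square per gene 1.62 or more).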

Additional observations from a re-analysis of the deposited data

How the results depend on the processing

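Of 390 alternative values of the 10 genes (30 gene and comparison pairs, 13 settings each) 365 kept their direction and side of the threshold, 11 fell below it, 7 passed it and 7 changed sign. Without scaling factors SIS3_TGFb against TGFb called 3 of the 10 genes instead of 6. Sign changes were in values near 0 that passed nowhere: Ccne2 in SIS3_TGFb against TGFb (0.0045 without scaling factors, and -0.251 to 0.0263 with a replicate left out, positive without SIS3_TGFb replicate 2 or TGFb replicate 3), Cdk4 in the same comparison (0.054 without scaling factors) and Cdkn2c in SIS3_TGFb against Ctrl (0.05663 without scaling factors, and -0.05327 to 0.07735 with a replicate left out). Foxo3 in SIS3_TGFb against TGFb also changed sign, with 0.0705 without scaling factors and -0.06356 to 0.0413 with a replicate left out. With a replicate left out, calls numbered 5 to 6 of the 10 genes in SIS3_TGFb against TGFb, 5 to 7 in TGFb against Ctrl and 7 in SIS3_TGFb against Ctrl. For the other lists, alternatives were added after seeing the data: the other D cyclin and inhibitor genes had 1 to 3 calls in SIS3_TGFb against Ctrl and 1 to 2 in SIS3_TGFb against TGFb with a replicate left out, S phase entry genes 5 to 7 (8 with all libraries) in SIS3_TGFb against TGFb, and upstream factors 3 in DESeq2. The cause of these changes was not tested. With the replicate block the counts of members called were 6, 6 and 7, as without it, and it changed no call of the 10 genes; over all genes it called 4803, 3942 and 6346 instead of 5104, 4190 and 6585 in SIS3_TGFb against TGFb, TGFb against Ctrl and SIS3_TGFb against Ctrl. Same-numbered replicates did not deviate together, so the block describes numbers only. Counts were lowest for Ccne2, at 68.3 to 99.5 per library, then Cdk2 (97 to 236), Cdkn2c (128 to 175) and Ccne1 (166 to 271).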
